A study of Mus musculus with 11 samples.

Results

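The miR-101 family is represented on the array by 3 microRNAs (miRNAs), mmu-miR-101a-3p, mmu-miR-101b-3p_v20.0 and mmu-miR-101c, out of 1247 miRNAs printed there. These 3 were selected on measured values, namely for signals that were high 30 days after cardiac cryoinjury and at or near the detection limit earlier, so every comparison of them below is a description without a test. In scanner units all 3 members read higher on all 3 day 30 arrays than on any earlier array, though the arrays differed in brightness. A gain of mmu-miR-101b-3p_v20.0 over day 0 was not resolved. On the day 30 arrays mmu-miR-101a-3p gave 238 to 521 scanner units, mmu-miR-101b-3p_v20.0 gave 39.1 to 86.3 units and mmu-miR-101c gave 107 to 232 units. Before day 30 the highest signal of any of them was 33.4 units, on 1 day 3 array, and none was detected on any day 0 or day 7 array.

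The samples were GFP-positive cardiac macrophages of Cx3cr1GFP/+ mice aged 2 to 3 months, in which GFP replaces 1 allele of the fractalkine receptor gene in every group, controls included. Cryoinjury, in which a frozen probe kills part of the heart muscle, stood in for myocardial infarction. The groups were uninjured hearts without surgery (day 0, 2 arrays, Ly6clow/CX3CR1high cells), day 3 (3 arrays, Ly6chigh/CX3CR1low cells), day 7 (3 arrays, Ly6clow/CX3CR1high cells) and day 30 (3 arrays, Ly6clow/CX3CR1high cells). Since the only Ly6chigh group is day 3, its stage and its population cannot be told apart. The labels call the samples independent biological replicates and tie no array to an animal or pool.

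A miRNA directs silencing complexes to messenger RNAs that pair with its seed, the bases near its 5′ end, and miRNAs that share a seed share most predicted targets. miR-101 is a conserved vertebrate family known for repressing Ezh2, the catalytic subunit of the Polycomb repressive complex that methylates histone H3. In rat heart miR-101 has been described as a brake on fibroblast activation through Fos, and in mouse macrophages it has been described as a repressor of Dusp1, a phosphatase that switches off MAP kinases. No messenger RNA was measured here, so these roles are background only.

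The mature sequences show how close the 3 members are, and therefore how far their array rows can be taken as separate measurements. They are RefSeq sequences on GRCm38.p6, written 5′ to 3′ with the seed (bases 2 to 8) in capitals. The array row mmu-miR-101b-3p_v20.0 was matched by name without its suffix, and whether that row stands for exactly the sequence shown was not checked.
mmu-miR-101a-3p: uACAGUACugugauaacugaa
mmu-miR-101b-3p: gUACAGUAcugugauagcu
mmu-miR-101c: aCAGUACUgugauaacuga
mmu-miR-144-3p: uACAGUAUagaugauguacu

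The members' seeds are frames of a single stretch, each shifted by 1 base from that of mmu-miR-101a-3p. mmu-miR-101b-3p has 1 extra base at its 5′ end, shares the run uacaguacugugaua of 15 bases with mmu-miR-101a-3p and then carries the substitution A16G, counted from 1 at the 5′ end of mmu-miR-101a-3p. mmu-miR-101c, of 19 bases, lies whole within bases 2 to 20 of mmu-miR-101a-3p. No other mouse miRNA of the RefSeq table has any of the 3 seeds at bases 2 to 8. mmu-miR-144-3p, an erythroid miRNA shown because its first 7 bases are those of mmu-miR-101a-3p, departs from the family inside the seed. Probe sequences were not used here, and whether the rows of mmu-miR-101a-3p and mmu-miR-101c measured separate RNAs or the same RNA cannot be told apart.

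The members come from separate loci. mmu-miR-101a-3p lies at chr4:101346957-101346977 on the minus strand, in the hairpin gene Mir101a, inside the span of the long noncoding RNA gene E130102H24Rik. mmu-miR-101b-3p lies at chr19:29135338-29135356 on the plus strand, in Mir101b, inside the span of Rcl1, a protein-coding gene of ribosomal RNA processing. mmu-miR-101c lies at chr9:3038680-3038698 on the minus strand, inside no other gene of the RefSeq table. The hairpins are shown with the mature 3′ arm in capitals, because the opposite arm of each is a second product that the array also carried.
Mir101a (chr4:101346945-101347027, minus strand): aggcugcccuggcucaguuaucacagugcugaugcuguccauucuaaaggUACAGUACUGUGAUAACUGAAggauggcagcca
Mir101b (chr19:29135279-29135375, plus strand): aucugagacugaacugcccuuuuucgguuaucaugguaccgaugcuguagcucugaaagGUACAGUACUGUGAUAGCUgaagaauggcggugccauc

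The 5′ arms of these hairpins, mmu-miR-101a-5p and mmu-miR-101b-5p, were undetected on all 11 arrays, as were both arms of miR-144. The signal at day 30 therefore came from the 3′ arm rows alone.

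The arrays differed widely in brightness, and the day 30 arrays were among the brightest, which touches every comparison below. The 75th percentile of signal over the 126 miRNAs detected on all arrays was 55.7 and 163 scanner units on the day 0 arrays, 805 to 1607 units on those of day 3, 114 to 323 units on those of day 7 and 1453 to 2304 units on those of day 30, a 41.4-fold range. Each array was divided by that percentile before groups were compared, and values under the floor of the scale (a log2 of -8.53) were raised to it. The day 0 arrays detected 151 and 173 miRNAs, those of day 3 detected 301 to 338, those of day 7 detected 208 to 270 and those of day 30 detected 290 to 340. The arrays of day 30 replicates 2 and 3 lay within the scanner's error of each other, with 0.250 times the squared difference expected over 290 miRNAs, against 3.81 to 49.9 times for the other replicate pairs. They were averaged and counted as 1 sample, so that day 30 has 2 samples. Precision is limited by the small number of arrays. Myeloid markers (miR-223-3p and both miR-142a arms) had the highest summed scaled signal of the 6 marker lists in every group. Their sums were 3.90 to 7.16 on day 0 arrays, 14.2 to 17.9 on day 3 arrays, 2.38 to 3.58 on day 7 arrays and 7.94 to 9.33 on day 30 arrays. The lists differ in length and probes, and undetected markers count as 0, so the sums do not give shares of cells.

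mmu-miR-101a-3p stood farthest above background at day 30 of the 55 miRNAs that were detected on all day 30 arrays and undetected on every day 0 and day 7 array. It read 521, 238 and 312 units on day 30 replicates 1, 2 and 3, against 14.6, 1.89 and 33.4 units on the day 3 arrays. The day 7 arrays read 1.22, 1.22 and 1.42 units and the day 0 arrays 1.499 and 1.401 units, all undetected. Every day 30 array was above every earlier array, and day 3 was split, with replicates 1 and 3 detected and replicate 2 undetected. Such separation was common. On scaled signal, 74.5% of tested miRNAs did not overlap between day 30 and day 3, in either direction. The shares were 71.3% between day 30 and day 7 and 78.3% between day 30 and day 0. The undetected readings equal the error that the scanner gives them, so they mark the background and carry no order.

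mmu-miR-101b-3p_v20.0 stood least far above background of the members at day 30, with 86.3, 39.1 and 49.1 units on replicates 1, 2 and 3. On the day 3 arrays it gave 6.44, 1.86 and 22.1 units, again with replicates 1 and 3 detected and replicate 2 undetected. Its undetected day 7 signals were 1.18, 1.22 and 1.42 units and its undetected day 0 signals 1.48 and 1.40 units. The day 30 and day 3 groups did not overlap in units, where 74.5% of tested miRNAs did not overlap on scaled signal. The lowest day 30 signal and the highest day 3 signal lay closer together than for the other members.

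mmu-miR-101c gave 232, 107 and 134 units on the day 30 arrays, against 1.94, 1.82 and 4.77 units on the day 3 arrays. Only day 3 replicate 3, the brightest of that group, detected it. Day 7 held 1.18, 1.22 and 1.42 units and day 0 held 1.48 and 1.40 units, all undetected. mmu-miR-101c was thus read at day 3 near the limit of detection, with a scanner error of 29.6% on the 1 array that detected it.

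**Figure D1:**
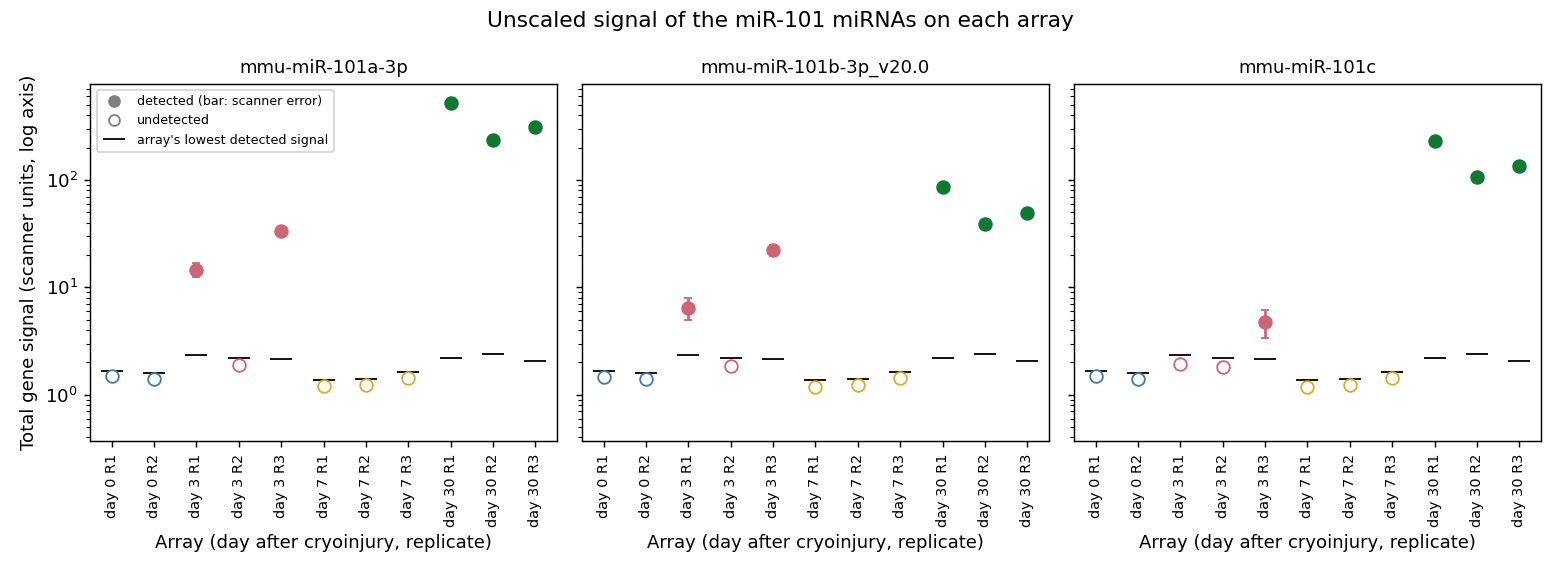
Unscaled signal in scanner units (log axis) of each miR-101 miRNA on each of the 11 arrays, in order of day after cryoinjury. Filled points were detected and carry the scanner's error as a bar, open points were undetected, and black dashes mark each array's lowest detected signal; the 3 day 30 arrays read 238 to 521 units for mmu-miR-101a-3p, above all earlier arrays.

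The scanner's own error was small beside these differences at day 30. It was 7.10% to 7.16% for mmu-miR-101a-3p, 8.36% to 9.52% for mmu-miR-101b-3p_v20.0 and 7.73% to 7.84% for mmu-miR-101c. The brightest day 30 array exceeded the dimmest by 2.19-fold, 2.21-fold and 2.17-fold for these members in the same order, while the 75th percentiles of the same arrays differed by 1.59-fold. At day 3 replicate 3 exceeded replicate 1 by 2.28-fold for mmu-miR-101a-3p and 3.44-fold for mmu-miR-101b-3p_v20.0, while the arrays' 75th percentiles differed by 1.67-fold. Both day 3 arrays that detected these members were on slide 1, and replicate 2, which did not, was on slide 2 and was the dimmest of the day 3 arrays. The part of slide and brightness in that split was not tested.

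Day 30 against day 3 sets the brightest groups against each other, the later one of Ly6clow/CX3CR1high cells and the earlier one of Ly6chigh/CX3CR1low cells. On the log2 scale of scaled signal, mmu-miR-101a-3p averaged -2.35 ± 0.29 at day 30 (SD, n = 2) and -6.72 ± 1.58 at day 3 (SD, n = 3). This is a change of 4.37 (SE 0.79), or 20.7-fold on scaled signal, and of 3.47 without day 3 replicate 2, which was undetected and held at the floor. mmu-miR-101c averaged -3.53 ± 0.30 at day 30 and -8.49 ± 0.08 at day 3, a change of 4.96 (SE 0.55) or 31.1-fold. Its day 3 mean lies at the floor, because 2 of 3 arrays did not detect it, and the small SD there is that of the floor and not of a level.

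mmu-miR-101b-3p_v20.0 averaged -4.96 ± 0.32 at day 30 and -7.31 ± 1.18 at day 3, a change of 2.35 (SE 0.69) or 5.09-fold, and of 1.74 without day 3 replicate 2, likewise at the floor. The median change of the 3 members was 4.37, beside -0.41 over all 369 tested miRNAs. All 3 changes were above 0. In this comparison 30.9% of tested miRNAs (114 of 369) passed an adjusted p of 0.05 in limma, 9.76% as higher and 21.1% as lower at day 30. Nothing is read from these shares for members chosen on this comparison. Since day 3 values of all 3 members rest in part on the floor, the sizes of these changes have no order against those of other miRNAs. In bulk RNA, fewer cells that carry a miRNA and less of it in each cell cannot be told apart.

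**Figure D2:**
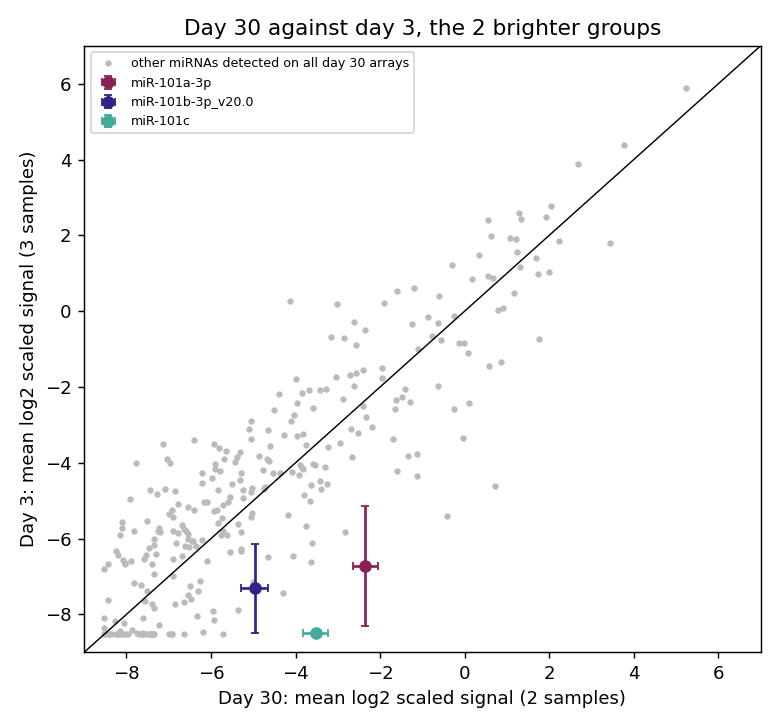
Mean log2 scaled signal at day 30 (x axis, 2 samples) and at day 3 (y axis, 3 samples) of the 290 miRNAs detected on all day 30 arrays. The line marks equal levels and the bars are SDs; the miR-101 miRNAs lie below the line, mmu-miR-101c beside the floor of -8.53 that holds at day 3.

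Single arrays of like brightness give the same direction without any scaling. Day 30 replicate 2 and day 3 replicate 3 had 75th percentiles of 1453 and 1607 units, a ratio of 0.904. Between these arrays the unscaled signal was 7.12 times higher at day 30 for mmu-miR-101a-3p, 1.76 times for mmu-miR-101b-3p_v20.0 and 22.4 times for mmu-miR-101c. The median ratio of the 263 miRNAs detected on both was 0.760, and among them 8 had a larger ratio than mmu-miR-101a-3p, 41 than mmu-miR-101b-3p_v20.0 and 2 than mmu-miR-101c. Day 30 replicate 3, at 1.09 times the percentile of day 3 replicate 3, gave ratios of 9.35, 2.22 and 28.1 for the members in that order, with a median of 0.863 over 293 miRNAs. These pairs are not independent, since they share day 3 replicate 3 and since day 30 replicates 2 and 3 count as 1 sample. Both also set day 30 arrays of slide 2 against a day 3 array of slide 1. Every other pair of a day 30 and a day 3 array had larger member ratios, with the day 30 array the brighter one. Among the members mmu-miR-101b-3p_v20.0 had the smallest excess in each of these pairs.

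Within slides the values were as follows. On slide 1, where day 30 replicate 1 met day 3 replicates 1 and 3, the day 30 minus day 3 changes were 3.67 for mmu-miR-101a-3p, 1.96 for mmu-miR-101b-3p_v20.0 and 5.15 for mmu-miR-101c. On slide 2, where day 30 replicates 2 and 3 met day 3 replicate 2, they were 5.98, 3.34 and 4.79 in that order, but all 3 members were undetected on that day 3 array, so these values are differences from the floor with 1 sample on each side. With array brightness as a covariate they were 4.62, 2.64 and 5.54. In the authors' deposited log2 table, which is normalized between arrays, they were 4.54, 2.98 and 5.53. How the arrays are scaled moves all miRNAs together. Under 4 other ways of scaling, including none, the median of all tested miRNAs shifted by up to 0.71 between days 30 and 3, by up to 2.50 between days 30 and 7, and by up to 3.92 between days 30 and 0. The family median lay 4.78, 4.53 and 3.90 above that of all tested miRNAs in these comparisons. Dividing arrays by constants moves both alike, so this distance can change only through the floor or through quantile normalization. A floor at the least sensitive array's limit reduced the day 30 minus day 3 changes of mmu-miR-101a-3p, mmu-miR-101b-3p_v20.0 and mmu-miR-101c to 2.77, 0.19 and 1.59, since it lifts the day 3 values and hides most of the range of mmu-miR-101b-3p_v20.0.

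Day 30 against day 7 compares cells of the same Ly6clow/CX3CR1high population, and day 7 gives only a limit for the family. The limit was taken as each array's lowest detected signal of any miRNA. On that limit mmu-miR-101a-3p was at least 28.6-fold higher at day 30, mmu-miR-101c at least 12.6-fold and mmu-miR-101b-3p_v20.0 at least 4.66-fold. Each bound sets the day 30 mean against the mean, in log2, of these limits of the 3 day 7 arrays. Undetected background differed between rows, with 1.05 units for mmu-miR-101a-5p and 1.48 units for mmu-miR-101b-5p on day 0 replicate 1. A row's own detection limit may therefore lie higher, and its bound would then be smaller. The fitted changes were 5.02 (SE 0.79), 3.86 (SE 0.55) and 2.42 (SE 0.69) in that order, with a median of 3.86 beside -0.68 over all tested miRNAs. All 3 members lay higher at day 30, in a comparison in which 47.7% of tested miRNAs were called, 13.6% as higher and 34.1% as lower at day 30. The day 7 arrays would have read mmu-miR-101a-3p at its lowest day 30 level at 13.4 to 38.8 times their lowest detected signal. The same figures were 6.01 to 17.4 times for mmu-miR-101c and 2.20 to 6.36 times for mmu-miR-101b-3p_v20.0.

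Day 30 against day 0 compares the late stage with the uninjured heart and is the weakest of the day 30 comparisons, because the day 0 arrays were the dimmest. Set against the mean of the day 0 arrays' lowest detected signals in the same way, mmu-miR-101a-3p was at least 11.5-fold higher at day 30. mmu-miR-101c was at least 5.09-fold higher. These bounds too would be smaller if the rows' own limits lie higher. No bound is given for mmu-miR-101b-3p_v20.0, whose day 30 level lay at the limit of 1 of the 2 day 0 arrays. The fitted changes were 3.69 (SE 0.86), 2.52 (SE 0.60) and 1.09 (SE 0.76) in that order, with a median of 2.52 beside -1.37 over all tested miRNAs. All 3 fitted values were above 0, where 56.4% of tested miRNAs were called, 8.94% as higher and 47.4% as lower at day 30.

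What the day 0 arrays could have read differs between the members. Day 0 replicates 1 and 2 would have read mmu-miR-101a-3p at its lowest day 30 level at 16.2 and 5.67 times their lowest detected signals, and mmu-miR-101c at 7.28 and 2.55 times. For mmu-miR-101b-3p_v20.0 the figures were 2.66 and 0.932 times, so a day 30 level of this member would have gone undetected on day 0 replicate 2. Its change against day 0 was 0.13 on slide 2 alone, which holds that array, and ran between 0.35 and 1.82 as single samples were left out. Whether mmu-miR-101b-3p_v20.0 was lower in uninjured hearts than at day 30 could therefore be read on at most 1 day 0 array and was not resolved. The lower ratios given here may be marginal. On day 3 replicate 3 mmu-miR-101c was detected at 2.21 times the lowest detected signal, with a scanner error of 29.6%.

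**Figure D3:**
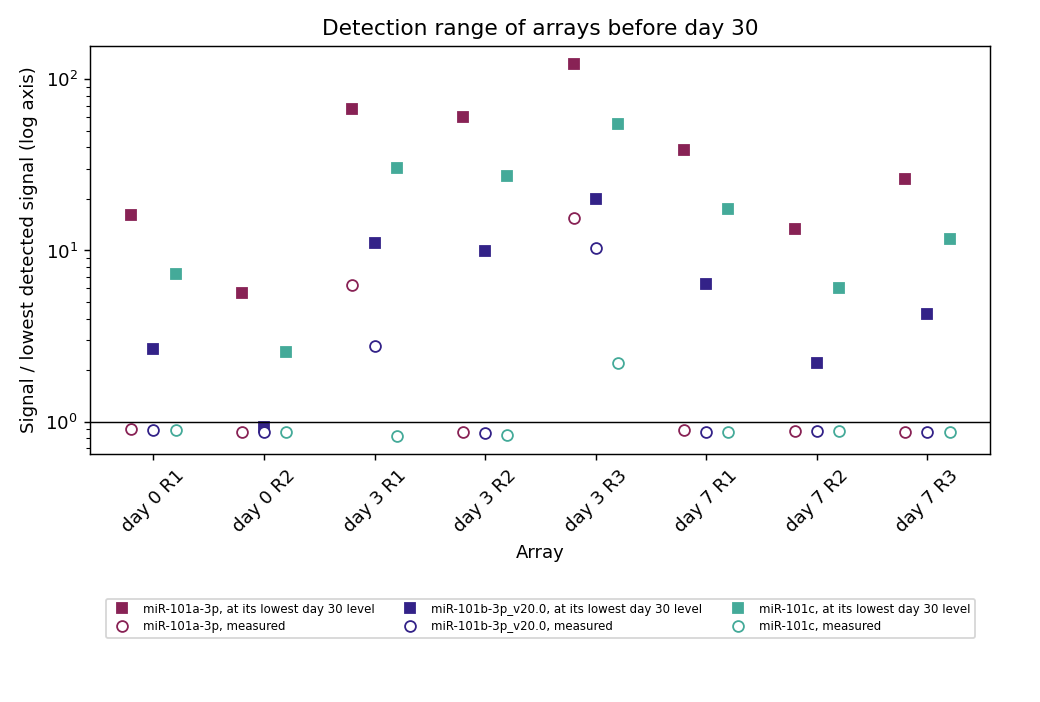
Ratio of signal to the array's lowest detected signal (log axis) on the 8 arrays before day 30. Squares show where each miRNA would lie at its lowest scaled day 30 level and circles show what was measured. All squares but that of mmu-miR-101b-3p_v20.0 on day 0 replicate 2 (0.932) lie above the line at 1. The line is the lowest detected signal of any miRNA, a row's own limit may lie higher, and squares little above the line may be marginal.

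The comparisons among the first 3 time points involve values near the detection limit, for which the members were chosen, so nothing is read from their tests. For day 3 against day 0, 1 of 3 members passed the adjusted p of 0.05 in limma, in a comparison in which 55.3% of tested miRNAs did. That member was mmu-miR-101c, with a fitted change of -2.43. It was undetected on both day 0 arrays and on 2 of 3 day 3 arrays, so this value compares the scaled background of dim arrays with that of brighter ones and was not read as a fall. It was 0.40 without scaling and 0.29 with scaling to the control features.

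mmu-miR-101a-3p had a day 3 minus day 0 change of -0.68 (SE 0.79). mmu-miR-101b-3p_v20.0 had -1.26 (SE 0.69). Both were detected on 2 of 3 day 3 arrays and on neither day 0 array, and the day 0 limit lies above the day 3 mean, so no fold can be given in either direction. The family median was -1.26, beside -0.79 over all tested miRNAs, and turned to 1.68, beside 2.34, without scaling.

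For day 7 against day 0, 0 of 3 members passed in limma (1 without adjustment, mmu-miR-101c), beside 3.79% of tested miRNAs. All members were undetected in both groups, and the fitted value of -1.33 for each of them carries no level. For day 7 against day 3, 0 of 3 members passed in limma (1 without adjustment, mmu-miR-101c), where 37.1% of tested miRNAs did. mmu-miR-101a-3p had -0.65 (SE 0.71) and mmu-miR-101b-3p_v20.0 had -0.07 (SE 0.62). mmu-miR-101c had 1.10 (SE 0.49), again between the backgrounds of dim and bright arrays. Only for mmu-miR-101a-3p did the day 3 mean lie above the day 7 limit, by 1.32-fold. The median of the members was -0.07, beside 0.61 over all tested miRNAs.

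The order of levels over time can therefore be given in part. With limits taken as the arrays' lowest detected signals, day 30 lay above day 3 and day 7 for every member. It lay above day 0 for mmu-miR-101a-3p and mmu-miR-101c. Day 30 and day 0 could not be ordered for mmu-miR-101b-3p_v20.0. No order could be given among day 3, day 7 and day 0, although signal was detected at day 3 and on no day 7 or day 0 array, because the day 3 arrays were the brighter ones.

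The pattern of the family, detection on all day 30 arrays with no detection at day 0 or day 7, was shared by 55 of the 290 miRNAs detected on all day 30 arrays. Of these 55, 19 were detected on no day 3 array, 9 on 1, 9 on 2 and 18 on 3. The same pattern around day 3 held for 34 of the 284 miRNAs detected on all day 3 arrays. Ranked by their lowest day 30 signal, mmu-miR-101a-3p was 1st of the 55, mmu-miR-101c 2nd and mmu-miR-101b-3p_v20.0 4th. The others near the top were miR-340-5p, 3rd with at least 98.96 units at day 30 but also 34.5 to 130 units at day 3, and miR-24-2-5p, 5th with at least 29.4 units at day 30. miR-30a-3p, 6th with at least 28.6 units at day 30, was undetected on every day 3 array. Signals of different miRNAs rest on different probes, so the ranks describe distance from background and not abundance.

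Within the family the profiles over the 10 samples were alike, with a Pearson r of 0.925 between mmu-miR-101a-3p and mmu-miR-101b-3p_v20.0, 0.859 between mmu-miR-101a-3p and mmu-miR-101c and 0.855 between mmu-miR-101b-3p_v20.0 and mmu-miR-101c. These values are descriptions over samples that share brightness and background. Among the other 366 tested miRNAs, the profile closest to the mean of mmu-miR-101a-3p and mmu-miR-101b-3p_v20.0 was that of miR-1a-3p (r = 0.890), a striated muscle miRNA. It was followed by miR-24-2-5p (0.873), miR-152-3p (0.807), miR-219a-5p (0.797) and miR-29c-3p (0.788). Among the 126 miRNAs detected on all arrays, whose levels were measured at every time, the closest were miR-29c-3p (0.788), miR-322-5p (0.724), miR-29b-3p (0.656), miR-511-3p (0.654) and miR-30a-5p (0.651). miR-29c-3p was 2.53 higher at day 30 than at day 3 (limma adjusted p = 0.00254) and 2.89 higher than at day 7 (limma adjusted p = 0.000856).

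Because a muscle miRNA had the closest profile, the markers of other heart cells are given beside the family. Cardiomyocyte markers (miR-1a-3p, both miR-133 members, miR-208a-3p, miR-208b-3p and miR-499-5p) summed to 0.101 to 0.164 of scaled signal on day 0 arrays, 0.0158 to 0.0381 on day 3 arrays, 0.0698 to 0.120 on day 7 arrays and 0.0526 to 0.0773 on day 30 arrays. Detected were 2 to 3 of the 6, and miR-208a-3p, miR-208b-3p and miR-499-5p were undetected on all arrays. At day 0 the detected markers were miR-133a-3p and miR-133b-3p, whose differences between days 30 and 0 change sign without scaling. miR-1a-3p itself was undetected on both day 0 arrays, and was 2.14 higher at day 30 than at day 3 (limma adjusted p = 0.0343) and 1.88 higher than at day 7 (limma adjusted p = 0.0390). Erythroid markers summed to 0 on day 0 arrays, 0.0288 to 0.0596 on day 3 arrays, 0 to 0.0104 on day 7 arrays and 0.0815 to 0.108 on day 30 arrays, with both miR-144 arms undetected throughout. The erythroid sum was thus highest at day 30, but undetected markers count as 0 in all these sums, which therefore depend on each array's detection limit. Of the tested erythroid markers, miR-451a had a day 30 minus day 3 change of 1.06 (limma adjusted p = 0.159). It was 3.43 higher at day 30 than at day 7 (limma adjusted p = 0.000513), where only 1 array detected it. Against day 0, where it was undetected, its change was 2.60 (limma adjusted p = 0.00532). miR-486a-5p, near the floor, had a day 30 minus day 3 change of -0.26 (limma adjusted p = 0.768). Its fitted changes of -1.15 against day 7 and -2.47 against day 0, where it was undetected, were not read as falls. Fibroblast and smooth muscle markers summed to 0 to 0.0312 on day 0 arrays, 0.0820 to 0.112 on day 3 arrays, 0.165 to 0.412 on day 7 arrays and 0.195 to 0.212 on day 30 arrays, with miR-145a-5p undetected throughout. Endothelial markers summed to 0.0647 to 0.417 on day 0 arrays, 0.306 to 0.402 on day 3 arrays, 0.287 to 0.342 on day 7 arrays and 0.248 to 0.266 on day 30 arrays. Lymphocyte markers summed to 0.150 to 0.277, 0.0923 to 0.138, 0.155 to 0.213 and 0.103 to 0.123 at these times. The part of other cells in the day 30 signal of the family was not tested.

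Other miRNAs with roles that overlap those described for miR-101 were read as lists, whose members were chosen with earlier results of these data known. Days 3 and 30 had the bright arrays and days 7 and 0 the dim ones. With brightness as a covariate no tested miRNA passed for day 30 against day 0, and few did against day 7. Calls of day 3 against days 0 and 7 also became fewer. The list and marker calls between bright and dim groups hold only without that covariate or were not followed under it. Of the Ezh2-targeting miRNAs on the array, 3 of 6 were tested and 0 of these 3 passed for day 30 against day 3 in limma, also without adjustment, where the 3 miR-101 miRNAs had a median change of 4.37. The list's median change was 0.70, beside -0.41 over all tested miRNAs. miR-26b-5p, which has been described as a repressor of Ezh2, was 2.83 higher at day 30 than at day 7 (limma adjusted p = 0.00284) and 2.36 higher than at day 0 (limma adjusted p = 0.0120). It was already 1.66 higher at day 3 than at day 0 (limma adjusted p = 0.0378) and had a change of -2.13 at day 7 against day 3 (limma adjusted p = 0.0112). miR-26b-5p was thus higher at day 3 and day 30 than at day 7 or day 0, whereas the miR-101 miRNAs were near their limit at day 3. This order of miR-26b-5p is also that of the bright and dim groups, and the part of brightness in it was not tested.

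Its relative miR-26a-5p was 1.25 higher at day 30 than at day 7 (limma adjusted p = 0.0369), with a change of 0.76 from day 3 (limma adjusted p = 0.205). miR-214-3p, also described as a repressor of Ezh2 and a fibroblast marker, ran the other way. Its day 30 change was -3.09 against day 7 (limma adjusted p = 0.00175, but a change of 0.09 without scaling). Its day 7 change was 2.79 against day 3 (limma adjusted p = 0.00330). On day 0 it was undetected on both arrays. Day 7 was at least 5.46-fold higher by the day 0 arrays' lowest detected signals (limma adjusted p = 0.0393).

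Of the cardiac antifibrotic miRNAs all 8 were tested. Against day 3, 2 of 8 were higher at day 30 and 0 were lower, beside 9.76% higher and 21.1% lower of all tested miRNAs, and the median change was 0.75. The risers were miR-29c-3p, with 2.53 as above, and miR-29b-3p, with 2.21 (limma adjusted p = 0.0143), both repressors of collagen messenger RNAs. Against day 7, 5 of 8 were higher and 2 lower at day 30, beside 13.6% and 34.1% of all tested miRNAs. Against day 0, 3 were higher and 2 lower, beside 8.94% and 47.4%. miR-29b-3p led both, with 3.95 against day 7 (limma adjusted p = 0.000370) and 3.57 against day 0 (limma adjusted p = 0.00164). The miRNAs that were lower at day 30 both times were miR-133a-3p and miR-133b-3p of striated muscle, with -1.46 and -1.36 against day 7 and -2.06 and -1.94 against day 0. Both changed sign without scaling, to 1.71 and 1.82 against day 7 and 2.27 and 2.39 against day 0.

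The earlier times set the miR-29 miRNAs apart from the family in one respect, since miR-29b-3p and miR-29c-3p were detected on all arrays. miR-29b-3p had a day 3 minus day 0 change of 1.36 (limma adjusted p = 0.0627) and a day 7 minus day 3 change of -1.74 (limma adjusted p = 0.0208). miR-29a-3p was 1.16 higher at day 30 than at day 0 (limma adjusted p = 0.0434) and 1.39 higher than at day 7 (limma adjusted p = 0.0147). At day 3 the list had 0 higher and 2 lower against day 0, beside 16.3% and 39.0% of all tested miRNAs, the lower ones being miR-133a-3p and miR-133b-3p, whose changes of -2.81 and -2.75 also turned positive without scaling. At day 7 it had 0 of either against day 0 in limma, 0 also without adjustment, and 2 higher and 2 lower against day 3, beside 21.1% and 16.0%.

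**Figure D4:**
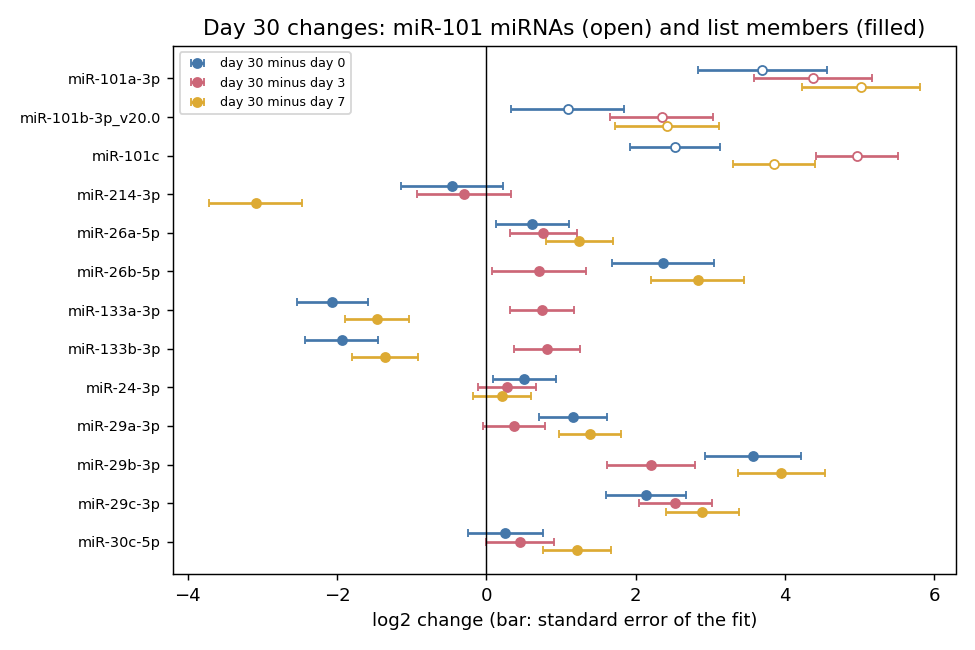
Log2 changes of day 30 against day 0, day 3 and day 7 (bars are standard errors of the fit) for the miR-101 miRNAs, shown open because they were chosen on these values, and for the tested Ezh2-targeting and cardiac antifibrotic miRNAs, shown filled. The miR-101 points all lie right of 0, as do those of miR-29b-3p and miR-29c-3p, and miR-214-3p lies at -3.09 against day 7 (0.09 without scaling).

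Of the Toll-like receptor responsive miRNAs, 7 of 9 were tested. Between day 30 and day 3, miR-146a-5p, which damps Toll-like receptor signalling through Traf6 and Irak1, was 5.33 higher (limma adjusted p = 0.000157) and miR-125b-5p was 2.32 higher (limma adjusted p = 0.00217). miR-132-3p changed by -3.57 (limma adjusted p = 0.000298). The list's median change was -0.61. miR-146a-5p had a change of -4.59 at day 3 against day 0 (limma adjusted p = 0.000357) and of 3.63 at day 7 against day 3 (limma adjusted p = 0.00124). Its day 30 level differed from day 0 by 0.75 (limma adjusted p = 0.380). miR-146a-5p was thus readily measured before injury, where the miR-101 miRNAs were undetected.

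miR-21a-5p, induced by inflammatory signals, was 3.47 higher at day 3 than at day 0 (limma adjusted p = 0.000149) and still 2.86 higher at day 30 than at day 0 (limma adjusted p = 0.000982). miR-155-5p, a classic product of activated macrophages, was undetected on both day 0 arrays. By those arrays' lowest detected signals it was at least 2.68-fold higher at day 3 (limma adjusted p = 0.0188). Over the list, 4 were higher and 1 lower at day 30 than at day 7, beside 13.6% and 34.1% of all tested miRNAs, and 1 was higher and 1 lower than at day 0, beside 8.94% and 47.4%. The lower one both times was miR-132-3p, which was undetected on both day 0 arrays, so that its day 0 difference was not read as a fall, and which changed sign without scaling (0.39 against day 7 and 1.18 against day 0). At day 3, 3 were higher and 2 lower than at day 0, beside 16.3% and 39.0%, and of the lower ones miR-125b-5p went to 0.20 without scaling, against -3.29 with it. At day 7, 1 was higher and 0 lower than at day 0, beside 3.25% and 0.542%, and 2 were higher and 3 lower than at day 3, beside 21.1% and 16.0%.

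All 3 members are poor in G and C, with 33.3% in mmu-miR-101a-3p, 36.8% in mmu-miR-101c and 42.1% in mmu-miR-101b-3p. The same comparison was therefore read over other miRNAs by base composition. A RefSeq mature sequence was found for 80.5% of the tested miRNAs (297 of 369). Among other miRNAs detected on all day 30 and day 3 arrays, the 53 with at most 42.1% G and C had a median day 30 minus day 3 change of 0.16, and 29 of them were above 0. The 147 richer in G and C had a median of -0.69, and 38 were above 0. Across these 200 miRNAs, which share arrays and are not independent, Spearman's rho between G and C content and change was -0.253. Among the 234 detected on all day 30 arrays, medians were 0.37 for 61 low and -0.52 for 173 richer miRNAs, with a rho of -0.248.

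**Figure D5:**
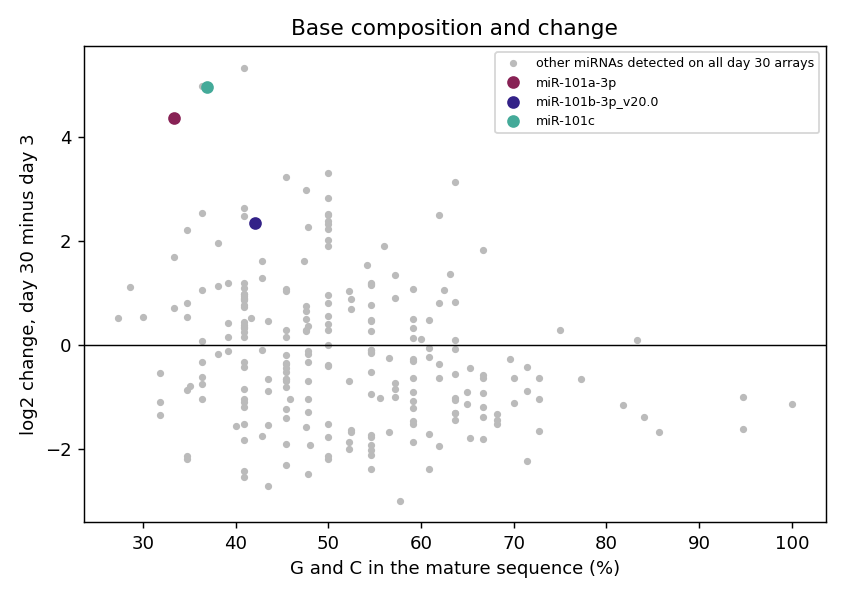
Share of G and C in the mature sequence (x axis, %) and log2 change of day 30 against day 3 (y axis) for the miRNAs detected on all day 30 arrays that have a RefSeq sequence. Grey points are other miRNAs, with lower changes at higher G and C content (rho of -0.248 over 234 miRNAs), and the miR-101 miRNAs lie between 33.3% and 42.1% at changes of 2.35 to 4.96.

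Low G and C content and higher day 30 signal thus went together among these miRNAs. The 53 miRNAs at or below 42.1% G and C had a median change of 0.16 and a range of -2.54 to 5.33. mmu-miR-101a-3p, mmu-miR-101b-3p_v20.0 and mmu-miR-101c changed by 4.37, 2.35 and 4.96, sizes that rest in part on the floor at day 3. The part of base composition in the family's change was not tested.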

How the data were processed

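MiRNAs were measured on 11 one-colour Agilent arrays with Cy3-labelled total RNA of cardiac macrophages. The deposited scanner files hold, per the file headers, a total gene signal per miRNA (intensity in scanner units) with an error and a flag (0 or 1) for detection. The images were read with Agilent Feature Extraction, per the submitters' processing notes; no source used here gives its version. The authors' deposited table holds log2 values of 317 miRNAs; the columns share nearly 1 distribution, which fits quantile normalization.

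Each array was divided by its 75th percentile over 126 miRNAs detected on all arrays and floored at 0.00271, the median of the arrays' lowest detected scaled signals. The 369 miRNAs detected on at least 2 arrays entered 1 limma 3.58.1 model (R 4.3.3; Python 3.11.15, pandas 2.3.3) of 10 samples with 6 residual degrees of freedom, and Benjamini-Hochberg adjustment ran over all of them at 0.05. The fit was tested on simulated data. Scaling, floor, filter, slide, brightness, replicate block and left-out samples were varied. Of 15 same-numbered pairs, 10 had deviations correlated over 0.1 (range -0.26 to 0.59), which does not settle whether replicate numbers pair samples. In every group replicate 1 was on slide 1 and replicate 2 on slide 2, so for these a shared slide and pairing cannot be told apart. The labels state no pairing, and the main fit left samples unpaired. RefSeq names matched 1034 of 1247 miRNAs.

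The members and lists were chosen with earlier results of these data known. Named were the 3 members, their other arms, miR-144, list miRNAs that passed a test at day 3 or day 7 or were brightest, and the 5 closest profiles; miR-340-5p, miR-30a-3p and a few list miRNAs were named after their values were seen.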

Additional observations from a re-analysis of the deposited data

How the results depend on the processing

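Median changes of the 3 miR-101 miRNAs at day 30 against the earlier days stayed above 0 under every alternative run, while their size followed the scaling and the floor. Against day 3 the day 30 median was 5.38 with scaling to the control features and 1.59 with the floor at the least sensitive array's limit. Against day 7 it was 5.29 with the percentile over all miRNAs, 6.32 without scaling, 6.38 with control features, 5.24 in the authors' table, 1.59 with the higher floor, 5.95 with brightness as a covariate and 2.80 on slide 2 alone. Against day 0 it was 5.29, 6.32, 6.31, 4.11, 1.59 and 4.96 under the first 6 of these, 4.31 with quantile normalization, 3.47 on slide 1 and 1.58 on slide 2. The members are not among the miRNAs detected on all arrays, so that filter gave them no value.

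Between the earlier times the medians had no stable direction, as values at the background do not. For day 3 against day 0 the median turned to 1.08 with the percentile over all miRNAs, 1.68 without scaling, 0.48 with quantile normalization, 1.51 with control features and 0.087 on slide 1 (for mmu-miR-101b-3p_v20.0, 0.087), and was -0.10 in the authors' table, 0 with the higher floor, -0.0073 with brightness and -3.21 on slide 2. mmu-miR-101c turned to 0.40 without scaling and 0.29 with control features. For day 7 against day 0 the median was 0 with the percentile over all miRNAs, without scaling, with quantile normalization and with the higher floor, and -0.067 with control features. Day 7 against day 3 gave -1.08 (percentile over all miRNAs), -1.68 (no scaling), -1.58 (control features) and -1.20 (authors' table), -1.10 on slide 1 and 1.99 on slide 2. Of 450 values of single members, 336 kept their direction and, between the earlier days, their side of the threshold, or moved by less than 1 SD.

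The share of miRNAs called for day 30 against day 3 was 14.4% with the higher floor, 8.10% without the detection filter, 54.5% with only these groups fitted and 7.86% to 43.4% as single samples were left out, lowest without day 30 replicate 1. Against day 7 that share was 24.1%, 12.8% and, with brightness, 3.52%, and 29.8% to 56.4% with samples left out. Against day 0 it came to 18.4% and 88.9% with the floor and without the filter, 0% with brightness (75 miRNAs at an unadjusted p under 0.05 in limma) and 27.6% to 71.3% with samples left out. Calls for day 3 against day 0 numbered 71 with the higher floor, 1110 without the filter, 73 among miRNAs detected on all arrays, 68 with brightness and 128 to 240 with samples left out.

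Calls for day 7 against day 0 numbered 61, 45, 39 and 80 with the percentile over all miRNAs, no scaling, quantile normalization and control features, 22 in the authors' table, 1011 without the filter, 4 among miRNAs detected on all arrays, 24 with the slide as a block, 69 with brightness, 0 with only these groups (24 unadjusted in limma) and 0 to 169 with samples left out. The limma count of 0 arose without day 3 replicate 2 (125 unadjusted), day 3 replicate 3 (116), day 7 replicate 3 (38) or day 30 replicate 1 (109). Calls for day 7 against day 3 numbered 208 without scaling, 74 with the higher floor, 790 without the filter, 75 among miRNAs detected on all arrays, 58 with brightness and 82 to 220 with samples left out. The causes of these shifts were not tested.

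With the replicate number as a block the family medians were 4.62 for day 30 against day 3, 3.85 against day 7, 2.52 against day 0 and -1.51 at day 3 relative to day 0. At day 7 the blocked medians were -1.57 relative to day 0 and -0.07 relative to day 3. The replicate block changed no call of a member. Dim day 0 and day 7 arrays, 2 day 30 samples and unknown probe specificity limit what the arrays show of this family.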
